A study of Mus musculus with 18 samples.

Results

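A set of 10 immediate early genes was followed in mouse blood after gamma irradiation: the AP-1 subunit genes Fos, Fosb, Jun, Junb and Jund, the related factor Atf3, the zinc finger factor Egr1, and Ier2, Ier3 and Dusp1. They were chosen by name, as the non-control probes whose gene name was one of the 10, out of 20827 named genes on the array. The array carried 12 probes for them. A total of 9 genes were found under their current name, and Jund was found through its RefSeq accession because the files list it under the older name Jund1. Ier2 and Junb had 2 probes each and the other members 1. Blood came from male C57BL/6N mice aged 8 to 12 weeks, drawn by cardiac puncture 6 hours after exposure to a cesium gamma source or sham treatment. There were 7 sham-treated mice (0 Gy), 5 mice at 2 Gy and 6 at 8 Gy, each measured on 1 single-colour Agilent array after removal of globin RNA. The RNA kit was PAXgene for 2 mice at 0 Gy and 1 at 2 Gy, and RiboPure for the other 15, so no 8 Gy sample was prepared with PAXgene. The samples are whole blood, a mixture of all circulating cells, in which fewer cells of a type and less RNA per cell cannot be told apart.

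AP-1 is a dimer of a Fos or Jun family protein with another member of these families, joined through a leucine zipper, that binds a short palindromic DNA site. Immediate early genes are transcribed within minutes of a stimulus without new protein synthesis, and many of their mRNAs are short-lived. MAP kinase cascades switch them on through factors such as SRF and CREB already present in the cell, and Dusp1, itself an immediate early gene, dephosphorylates those kinases. Leukocytes induce them in response to cytokines, bacterial products and ionizing radiation.

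The stretches of DNA before the start sites of the 6 members that rose at 8 Gy are shown here, searched for motifs of AP-1, CREB and SRF and for the common CCAAT and TATA boxes. RefSeq promoter entries on GRCm38.p6 were matched by symbol for 8 of the 10 members. Egr1 and Ier2 had no entry and were not searched. Each stretch covers the 250 bases before the start on the gene's own strand, 5′ to 3′, and capitals mark matches to the motifs named after them. The Fos stretch lies at chr12:85473640-85473889 on the plus strand, and that of Jun at chr4:95052223-95052472 on the minus strand. The Junb stretch lies at chr8:84978749-84978998 on the minus strand and that of Jund at chr8:70697489-70697738 on the plus strand. Those of Ier3, at chr17:35821463-35821712 on the plus strand, and Dusp1, at chr17:26508473-26508722 on the minus strand, share a chromosome.
Fos: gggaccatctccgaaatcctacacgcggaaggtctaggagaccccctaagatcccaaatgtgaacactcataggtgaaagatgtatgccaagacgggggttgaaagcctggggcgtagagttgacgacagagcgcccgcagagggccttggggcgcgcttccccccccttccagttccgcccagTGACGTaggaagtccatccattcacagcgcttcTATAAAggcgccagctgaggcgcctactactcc
Jun: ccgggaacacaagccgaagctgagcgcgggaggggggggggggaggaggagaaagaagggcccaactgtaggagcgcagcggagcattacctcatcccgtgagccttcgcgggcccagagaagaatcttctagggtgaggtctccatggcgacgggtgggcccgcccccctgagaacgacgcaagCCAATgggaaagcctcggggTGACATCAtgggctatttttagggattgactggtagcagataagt
Junb: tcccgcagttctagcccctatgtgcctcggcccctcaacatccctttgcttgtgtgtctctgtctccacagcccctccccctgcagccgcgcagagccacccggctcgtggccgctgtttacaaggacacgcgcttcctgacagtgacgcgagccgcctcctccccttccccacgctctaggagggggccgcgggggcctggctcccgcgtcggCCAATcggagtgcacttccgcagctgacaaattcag
Jund: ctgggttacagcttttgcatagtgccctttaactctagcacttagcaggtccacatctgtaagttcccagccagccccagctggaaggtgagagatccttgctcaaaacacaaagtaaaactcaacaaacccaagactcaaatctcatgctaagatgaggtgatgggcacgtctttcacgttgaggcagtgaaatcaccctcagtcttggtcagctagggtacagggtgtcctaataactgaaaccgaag
Ier3: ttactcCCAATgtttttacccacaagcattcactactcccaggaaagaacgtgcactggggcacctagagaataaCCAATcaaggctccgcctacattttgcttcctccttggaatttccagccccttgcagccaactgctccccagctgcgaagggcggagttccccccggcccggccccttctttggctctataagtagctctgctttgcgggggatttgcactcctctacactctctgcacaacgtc
Dusp1: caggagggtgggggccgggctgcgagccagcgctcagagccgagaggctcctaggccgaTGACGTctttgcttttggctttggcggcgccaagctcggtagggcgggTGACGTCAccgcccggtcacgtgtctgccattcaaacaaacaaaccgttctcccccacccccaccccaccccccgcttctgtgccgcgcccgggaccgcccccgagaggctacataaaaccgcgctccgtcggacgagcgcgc
Motifs were searched on both strands. The cAMP response element core TGACGT, bound by CREB and ATF proteins, was found in Fos, Atf3 and Dusp1, 3 of the 8 members, and in 6.47% of the 32851 RefSeq promoters cut to the same 250 bases. In Fos it starts 66 bases before the start site. Dusp1 has one copy 191 bases before the start and the full palindrome TGACGTCA, which contains the core on both strands, 143 bases before it. That palindrome occurs in 1.55% of all promoters. The Jun stretch holds TGACATCA, an AP-1-like site known from the Jun promoter, 45 bases before the start, and this sequence occurs in 2.93% of all promoters. The CCAAT box, letters CCAAT, is present in Jun, Junb and, at 244 and 175 bases, in Ier3, against 33.8% of all promoters. A TATA box, searched as TATAAA, was found in Fos alone of the members and in 12.4% of all promoters. The canonical AP-1 site TGACTCA (4.46% of all promoters) and the CArG box bound by SRF (1.47%) were in none of the 8 member windows. The Jund stretch matched none of the motifs. For every member this says only that these letters are not in these 250 bases, and sites farther upstream were not searched.

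Levels are given as log2 of the processed signal minus the log2 of the array's own 75th percentile signal, so 0 is the level of the 75th percentile probe. They serve to compare arrays for 1 probe, never probes with each other. All 12 probes were well above background on all 18 arrays and no spot was saturated. The lowest processed signal among them was 21.2 units, for Fosb, on an 8 Gy array. Fos and Jun were each printed 10 times on every array. Over the spots not flagged as outliers, the coefficient of variation ran from 2.7% to 15.4% for Fos and from 3.2% to 10.4% for Jun. The spread between mice was wider for both: the SD of the log2 level was 0.58 at 0 Gy (n = 7) and 0.92 at 8 Gy (n = 6) for Fos, and 0.91 and 0.47 for Jun.

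The 75th percentile signal of the sham arrays lay between 137.8 and 424.8 units, that of the 2 Gy arrays between 46.4 and 186.1, and that of the 8 Gy arrays between 58.4 and 231.8. Precision is limited by the number of arrays. The 18 arrays lay on 8 slides scanned on 7 days, and 0 Gy and 8 Gy shared only slide 3, with replicate 1 at 0 Gy and replicates 3 and 4 at 8 Gy. One sham array, labelled replicate 5, stood apart with a Cdkn1a level of 1.28, against -4.08 to -1.46 on the other 0 Gy arrays, -0.30 to 1.62 at 2 Gy and 1.20 to 2.67 at 8 Gy. Cdkn1a is a p53 target that serves here as a check of the dose labels. The array was kept at 0 Gy as labelled, and results that rest on it are given with and without it. Markers of neutrophils, monocytes, B, T and NK cells, platelets and erythroid cells were measured, and 77 of the 79 listed genes passed the filter.

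At 8 Gy, 6 of the 10 members rose against 0 Gy: Ier3, Dusp1, Junb, Jun, Fos and Jund, by 2.25-fold to 8.51-fold. None fell. The call depends on how slides are treated: with slide as a random block 4 of the 6 passed, and with slide or scan day as a fixed block, with array brightness as a covariate or without slide 3 none did, while the 6 kept their sign. Of all 13527 genes tested, 12% passed the same threshold and 7.63% were higher (limma, adjusted p under 0.05). The median log2 difference of the 10 members was 1.27, against 0.08 over all genes. Both AP-1 families were represented, with all 3 Jun genes higher but only 1 of the 2 Fos genes of the set past the threshold. That Fos and Fosb differ in their change was not tested. Fosl2, a Fos family gene outside the set, also rose and is given below with the other lists.

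**Figure D1:**
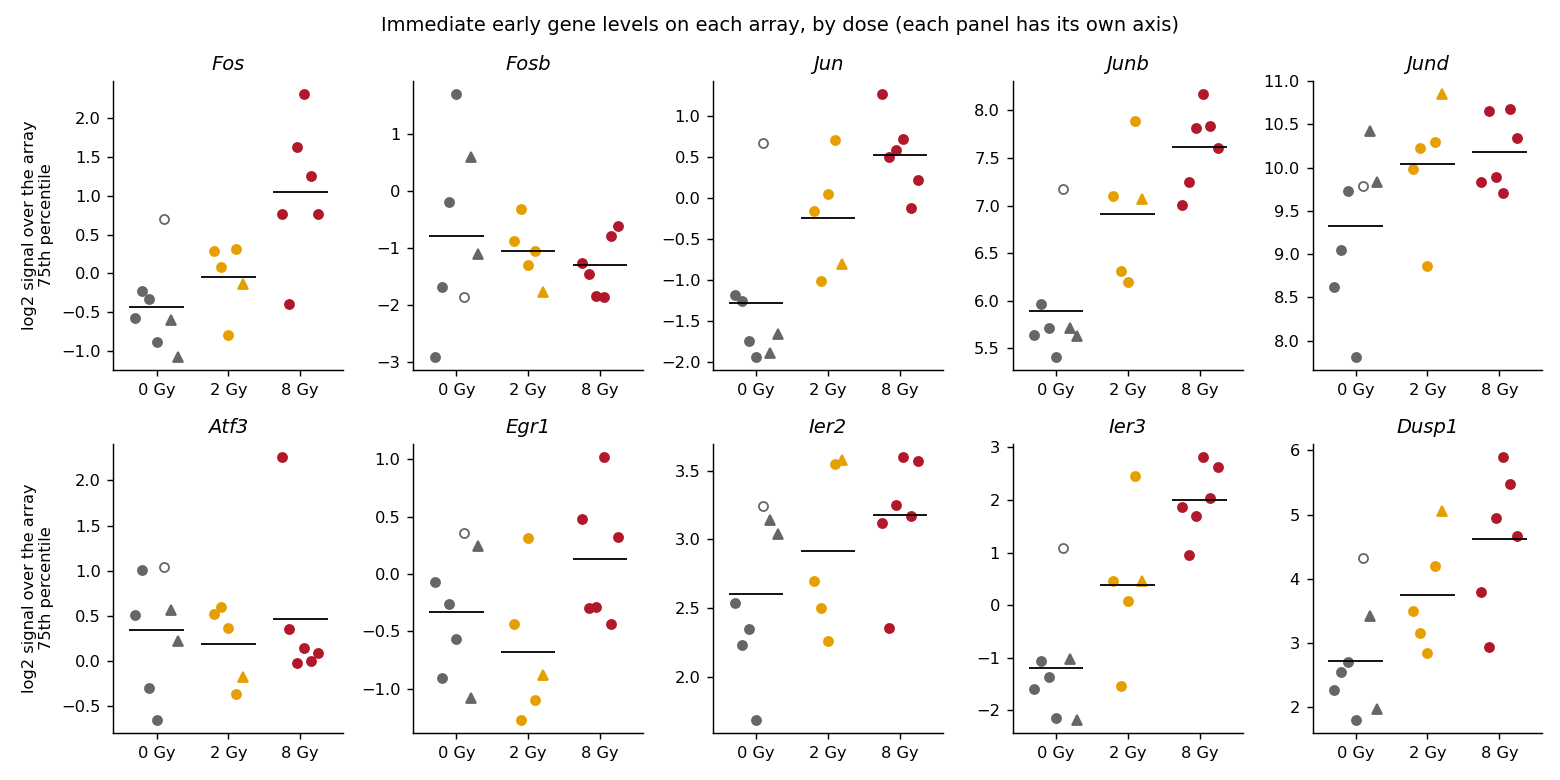
Level of each member on every array (y axis, log2 signal over the array's 75th percentile; each panel has its own axis) by dose (x axis). Circles are RiboPure and triangles PAXgene arrays, the open circle is 0 Gy replicate 5, and horizontal lines are group means. Jun, Junb and Ier3 at 8 Gy lie above every 0 Gy array but replicate 5, as do 6.16% of all genes.

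Jun encodes the founding Jun subunit, which forms AP-1 with Fos proteins and is switched on by JNK. Its probe (mm7 chr4:94441779-94441838, minus strand, as the files give it) read -1.94, -1.66 and 0.67 as the lowest, median and highest of the 7 arrays at 0 Gy. At 2 Gy the 5 arrays read -0.16, -1.02, 0.05, 0.70 and -0.81. At 8 Gy the lowest, median and highest were -0.13, 0.54 and 1.26. The highest 0 Gy value was replicate 5, and the other 6 lay at or below -1.19, so that without this array the 0 Gy group overlapped neither dose. With this array left out, every 8 Gy array was above every 0 Gy array for 6.16% of all genes. The same held for every 2 Gy array for 1.97%. Jun rose by 1.61 ± 0.39 (log2, SE) at 8 Gy, or 3.06-fold (adjusted p = 0.0229).

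Junb, the Jun subunit known for tempering Jun activity, followed the same order. The probe that stands for it (chr8:83563097-83563156) read 5.41, 5.71 and 7.17 as the lowest, median and highest at 0 Gy. The 2 Gy arrays read 7.10, 6.31, 6.20, 7.89 and 7.07, and the 8 Gy arrays 7.01, 7.71 and 8.17. Replicate 5 was again the top 0 Gy array, and every other 0 Gy value was at most 5.97, below all 2 Gy and 8 Gy arrays. The shares of all genes beside this are 1.97% at 2 Gy and 6.16% at 8 Gy, as for Jun. The rise at 8 Gy was 1.69 ± 0.33, or 3.22-fold (adjusted p = 0.0106). The other Junb probe, whose position overlaps the first, rose by 1.45 ± 0.36 (adjusted p = 0.0256 over probes).

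Jund is the Jun subunit that is expressed steadily in many resting cells. On its probe (chr8:69154598-69154657) the 0 Gy arrays ran from 7.81 over a median of 9.73 to 10.42. The 2 Gy values were 9.98, 10.23, 8.86, 10.30 and 10.85, and the 8 Gy values ran from 9.71 over 10.11 to 10.68. The groups overlapped over most of their range, and the PAXgene arrays, at 10.42 and 9.84 at 0 Gy and 10.85 at 2 Gy, were the highest of their doses. Jund rose by 1.17 ± 0.34, or 2.25-fold (adjusted p = 0.0408), with the kit in the model. Without the kit term the difference was 0.86 ± 0.38 (adjusted p = 0.13). The size also depended on the scaling. In limma it was 0.35 ± 0.23 with quantile normalization (adjusted p = 0.303) and 0.34 ± 0.22 with the deposited table (adjusted p = 0.29). With normexp it was 0.53 ± 0.40 (adjusted p = 0.359). The adjusted p was 0.0701 with slide and 0.0595 with scan day as a random block.

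Fos encodes the partner of the Jun proteins that cannot pair with itself and whose mRNA decays quickly. Its probe (chr12:83478431-83478490) read -1.08, -0.57 and 0.70 as the lowest, median and highest at 0 Gy. At 2 Gy it read 0.29, 0.08, -0.80, 0.31 and -0.14. The 8 Gy values were -0.39, 1.01 and 2.31. The groups overlapped: 8 Gy replicate 2 lay among the 0 Gy arrays, and the highest 8 Gy values, 1.63 and 2.31, were replicates 3 and 4 on slide 3. Fos rose by 1.37 ± 0.39, or 2.58-fold (adjusted p = 0.0375). The adjusted p was 0.0564 with slide as a random block. With slide 3 left out, an alternative added after seeing the data, the difference was 0.85.

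Fosb, a Fos relative known for its stable truncated product in neurons, did not pass the test. The 0 Gy values ran from -2.92 over -1.11 to 1.70, a spread of 4.62 log2 units that was the widest of any member in any group. The 2 Gy values were -0.88, -0.31, -1.30, -1.06 and -1.77, and the 8 Gy values ran from -1.86 over -1.36 to -0.61. Both irradiated groups lay inside the 0 Gy range. The 8 Gy difference was -0.48 ± 0.61 (adjusted p = 0.615). Its 95% interval ran from -1.76 to 0.81, so a fall or a rise within these bounds remains possible.

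Atf3, a stress-induced factor of the ATF/CREB family that pairs with Jun proteins, also did not pass. Its values ran from -0.65 over 0.51 to 1.04 at 0 Gy and from -0.02 over 0.11 to 2.26 at 8 Gy. The 2 Gy arrays read 0.52, 0.60, 0.37, -0.36 and -0.18. A single array, 8 Gy replicate 1, gave the value of 2.26, while the other 5 at that dose lay between -0.02 and 0.35, inside the 0 Gy range. The 8 Gy difference was 0.10 ± 0.40 (95% interval -0.74 to 0.93, adjusted p = 0.893), and it was -0.26 without that array.

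Egr1 encodes a zinc finger factor that SRF and ETS proteins switch on through the ERK cascade. Its levels ran from -1.08 over -0.26 to 0.36 at 0 Gy and from -0.44 over 0.01 to 1.02 at 8 Gy. At 2 Gy they were -0.44, -1.27, 0.31, -1.10 and -0.88, with 3 of 5 arrays at the low end of the 0 Gy range or below it. All groups overlapped. The 8 Gy difference was 0.41 ± 0.34 (95% interval -0.31 to 1.12, adjusted p = 0.417).

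Ier3 had the largest fold of the members. It encodes a short-lived protein, known as IEX-1, that is induced by radiation and NF-kB signals and acts on cell survival. Its probe (chr17:33924245-33924304) read -2.18, -1.37 and 1.08 as the lowest, median and highest at 0 Gy, and 0.96, 1.95 and 2.82 at 8 Gy. The 2 Gy arrays read 0.46, -1.53, 0.07, 2.45 and 0.45, one of them as low as the sham arrays and one as high as the 8 Gy arrays. Replicate 5 was the only 0 Gy array above -1.03. The rise at 8 Gy was 3.09 ± 0.60, or 8.51-fold (95% interval 1.82 to 4.36 in log2, adjusted p = 0.0103).

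Dusp1 encodes a nuclear phosphatase that inactivates p38, JNK and ERK and so ends the signal that induces these genes. On its probe (chr17:24690398-24690455) the 0 Gy values ran from 1.80 over 2.54 to 4.33 and the 8 Gy values from 2.93 over 4.81 to 5.90. The 2 Gy arrays read 3.50, 3.16, 2.84, 4.20 and 5.06, the last on PAXgene RNA. Replicate 5 at 0 Gy and the PAXgene replicate 6, at 3.42, overlapped the 8 Gy range, whose lowest arrays were replicates 2 and 1. Dusp1 rose by 2.06 ± 0.53, or 4.18-fold (adjusted p = 0.0275).

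Ier2, a nuclear protein gene induced with Fos and Jun, did not pass at 8 Gy. The probe that stands for it ran from 1.69 over 2.54 to 3.24 at 0 Gy and from 2.36 over 3.21 to 3.60 at 8 Gy. Its 2 Gy values were 2.70, 2.50, 2.26, 3.55 and 3.58. The difference at 8 Gy was 0.78 ± 0.28 (adjusted p = 0.0708). The second probe gave 1.06 ± 0.44 (adjusted p = 0.114 over probes). Without 0 Gy replicate 5 the first probe gave 0.97 ± 0.27 (adjusted p = 0.02).

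**Figure D2:**
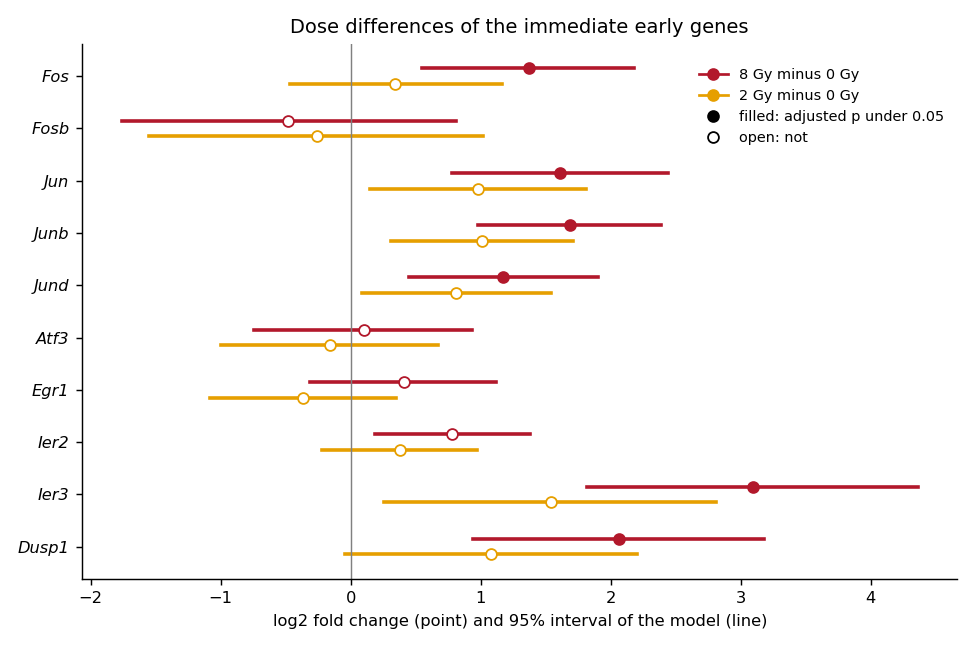
Log2 fold change (x axis, points) with the 95% interval of the limma model (lines) for each member (y axis), 8 Gy minus 0 Gy in red and 2 Gy minus 0 Gy in orange. Filled points passed an adjusted p of 0.05: 6 members at 8 Gy, from Jund at 1.17 to Ier3 at 3.09, and none at 2 Gy.

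Several results depend on single arrays and on the slides. Without 0 Gy replicate 5, 7 members rose at 8 Gy, Ier2 being added, and the share of all genes that were higher was then 15.5%. With every array kept, no member had all 8 Gy arrays above all 0 Gy arrays, and 0.821% of all genes did. With that array left out, Jun, Junb and Ier3 did, as did 6.16% of all genes. Leaving out slide 3 left no member past the threshold and no gene of the 13527, although 6 members still had an unadjusted p under 0.05, as did 2898 genes. The differences of Ier3, Dusp1, Jun, Junb and Jund were then 2.85, 1.60, 1.53, 1.44 and 1.28.

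Slide and scan day were also entered as fixed blocks, in place of the kit term. With the slide, no member passed (limma; 2 had an unadjusted p under 0.05, and 1168 of all genes) and the 6 members kept their sign, with Ier3 at 1.96, Dusp1 at 1.88, Fos at 1.47, Junb at 1.28, Jun at 1.14 and Jund at 0.82. With the scan day, no gene passed either (2506 had an unadjusted p under 0.05), and Ier3 stood at 2.17 and Jun at 0.84. On slide 3 itself, the mean of the 2 arrays at 8 Gy minus the 1 array at 0 Gy was 3.85 for Ier3, 3.15 for Dusp1, 2.54 for Fos, 2.36 for Junb, 1.83 for Jun and 1.18 for Jund, against a median of 0.13 over all genes. Scan day 7, which paired 1 array at 8 Gy with 0 Gy replicate 5, gave 1.54 for Ier3, 0.55 for Jund, 0.43 for Junb, 0.34 for Dusp1, 0.06 for Fos and -0.46 for Jun. Entering the brightness of the array as a covariate also left no gene past the threshold (1837 at an unadjusted p under 0.05), and Ier3 was then at 2.59 and Junb at 1.44. The part of slide and brightness in the result was not tested beyond these values.

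**Figure D3:**
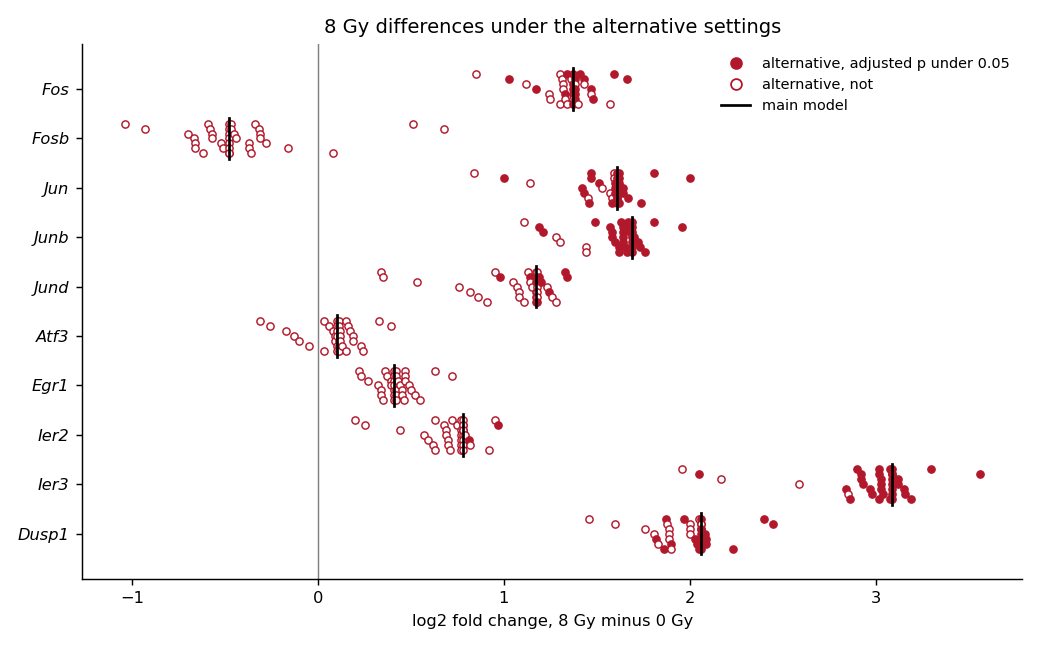
Log2 fold change at 8 Gy minus 0 Gy (x axis) of each member (y axis) under 37 alternative settings (points, filled where the adjusted p was under 0.05) and in the main model (black bars). Points of the 6 members that rose stay right of 0 under every setting run, but fewer of those of Jund and Fos than of Ier3 and Junb are filled.

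At 2 Gy, no member passed the threshold against 0 Gy. The 4 members with an unadjusted p under 0.05 were Junb at 1.01 ± 0.33 (adjusted p = 0.143), Jun at 0.98 ± 0.39 (0.187), Ier3 at 1.54 ± 0.60 (0.182) and Jund at 0.81 ± 0.34 (0.204). Dusp1 was at 1.08 ± 0.53, Ier2 at 0.38 ± 0.28 and Fos at 0.34 ± 0.39. Egr1, Fosb and Atf3 lay below 0, at -0.37, -0.26 and -0.16. The share of all genes called by limma was low here, at 0.0591%. An unadjusted p under 0.05 was common, in 2777 of the 13527 genes tested, and the 4 members are to be read against that count. The members' median was 0.60, against 0.06 over all genes. Without 0 Gy replicate 5, 3 members passed: Jun at 1.31 ± 0.30 (adjusted p = 0.0203), Junb at 1.24 ± 0.29 (0.0223) and Ier3 at 1.94 ± 0.53 (0.0413), beside 7.19% of all genes. In that set every 2 Gy array was above every 0 Gy array for Jun and Junb, as for 1.97% of all genes. On slide 1, with 2 arrays at 2 Gy and 1 at 0 Gy, Jund was 1.06 higher, Junb 0.74, Jun 0.67 and Ier3 0.53 (median of all genes 0.06). On slide 8, with 1 PAXgene array of each dose, Ier3 was 1.48, Junb 1.36, Jun 1.08 and Jund 0.42 higher (median of all genes 0.05). Slide 5 paired a 2 Gy array with 0 Gy replicate 5, and there Ier3 was -1.01, Junb -0.97, Jund -0.93 and Jun -0.63, with a median of -0.41 over all genes.

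From 2 Gy to 8 Gy, no member passed, and 0% of all genes did (limma; 421 genes and 3 members had an unadjusted p under 0.05). Those 3 were Fos at 1.02 ± 0.41, Ier3 at 1.55 ± 0.64 and Egr1 at 0.78 ± 0.36, each with an adjusted p of 0.931. The other values were 0.98 for Dusp1, 0.68 for Junb, 0.63 for Jun, 0.41 for Ier2, 0.36 for Jund, 0.26 for Atf3 and -0.21 for Fosb. For the 6 members that rose at 8 Gy the group means were therefore in the order 0, 2 and 8 Gy, but neighbouring doses were not separated by the test. On slide 4, with 3 arrays at 8 Gy and 1 at 2 Gy (replicate 4, the highest 2 Gy array for Ier3, Junb and Jun), Ier3 was -0.82, Junb -0.52 and Jun -0.16, while Fos was 0.23 and Egr1 1.02. On scan day 7, with 1 array of each dose, Ier3 was 2.55, Fos 1.56, Junb 1.41, Jun 0.17 and Egr1 0.01, with a median of 0.35 over all genes. This comparison shares arrays with both others.

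Between the kits, 3.52% of all genes and no member passed the threshold. In limma, 2 members had an unadjusted p under 0.05, as did 2622 of the 13527 genes tested, and they are to be read against that count. The 3 PAXgene arrays lay on slides 7 and 8, scanned on days 1 and 2, with no RiboPure array, so the kit and these slides and days cannot be told apart. The 2 members were Jund, 1.09 ± 0.39 higher in PAXgene than in RiboPure arrays (95% interval 0.26 to 1.91, adjusted p = 0.131), and Ier2, 0.73 ± 0.32 higher (adjusted p = 0.219). Jun, at -0.69 ± 0.45, and Fos, at -0.41 ± 0.44, lay lower in PAXgene arrays. In the 15 RiboPure arrays alone, Junb and Ier3 passed at 8 Gy, beside 2.17% of all genes. Dusp1, Jun, Fos and Jund did not pass there, with differences of 1.89, 1.61, 1.32 and 1.18. Whether the 2 Gy difference itself depended on the kit was tested as an interaction. No member passed (adjusted p of 1 for each), and with 1 PAXgene array at 2 Gy the standard errors were between 0.69 and 1.47.

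The members did not all share a profile over the 18 arrays. Likeness was measured as the root mean square difference between profiles scaled to mean 0 and SD 1, which is 0 for the same profile. It is a description over arrays that share doses, slides and depth. The closest of the 45 member pairs was Junb with Ier3, at 0.30. Jun with Ier3 (0.46), Junb with Dusp1 (0.47) and Fos with Dusp1 (0.50) came next. The median pair was at 1.12. The median distance from a member to the genes outside the set was 1.33 for the median member. Pairs of genes outside the set were not compared. Fosb stood farthest from the rest, with values of 1.46 to 1.67 against every other member. The array 8 Gy replicate 4 was the highest of all 18 for 6 members, and 0 Gy replicate 4 was the lowest for 6, although it was the highest for Fosb.

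**Figure D4:**
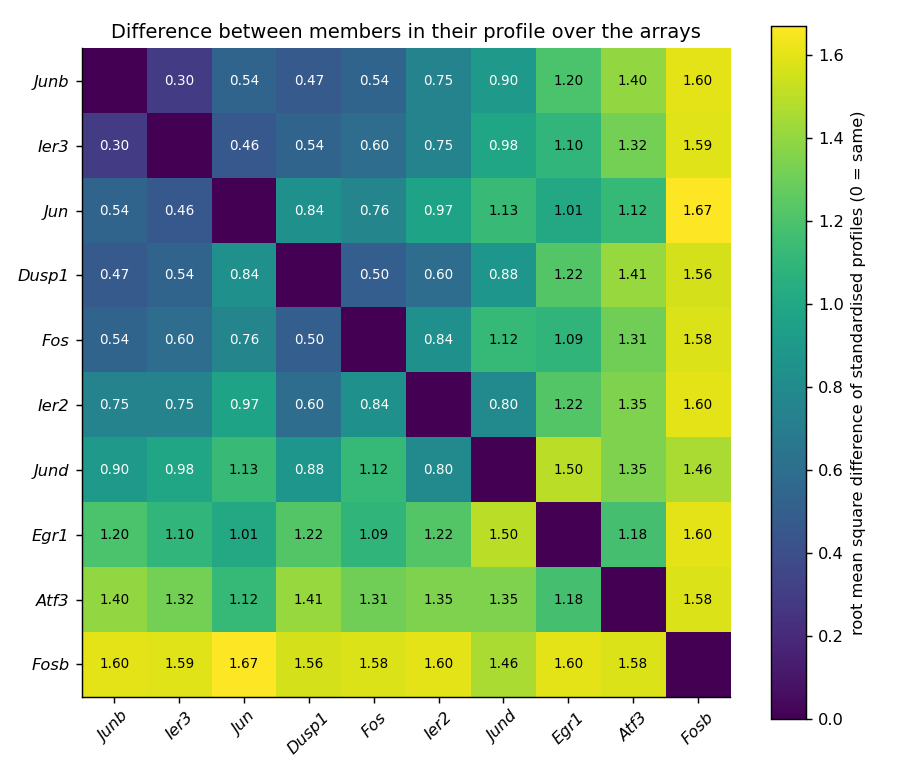
Root mean square difference between the standardised profiles over 18 arrays of each pair of members (both axes; colour and number, 0 is the same profile). Junb, Ier3, Jun, Dusp1 and Fos form the dark block at 0.30 to 0.84, and Fosb lies at 1.46 or more from every other member.

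Outside the 10 members, the genes nearest to Jun in profile were Id1 (0.28), Cdkn1a (0.34) and Plscr1 (0.34). Those nearest to Junb were Khdc3, Hcar2 and Fpr2, each at 0.17, and those nearest to Ier3 were Sbno2 (0.23), Hk3 (0.27) and Ankrd33b (0.27). Jund lay nearest to Fam104a (0.19), Pttg1 (0.20) and Iscu (0.21). Dusp1 was most like Ceacam10 (0.35), Slco4c1 (0.39) and Tmem154 (0.40), and Ier2 most like Fxyd5 (0.29) and Sptlc2 (0.31). For Fos the nearest were Camk2g and Sntb2, at 0.42, and Adam9, at 0.43. Fosb had Olfr360 (0.38), Wap (0.39) and Rimbp2 (0.42), Atf3 had Cndp2 and Slc7a7 (0.47) and Rspo1 (0.53), and Egr1 had no gene closer than Cemip2 (0.61), followed by Fkbp15 (0.65) and Prelid3b (0.69). A typical gene lay at 1.27 to 1.45 from a member.

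Other genes of the pathway were taken from lists. Of 15 measured AP-1 partners and other bZIP factors, 3 rose at 8 Gy and none fell, with a list median of 0.31. Jdp2, which pairs with Jun proteins and represses AP-1 sites, rose by 2.06 ± 0.40 (adjusted p = 0.0102), and Fosl2, the Fos family member Fra-2, by 1.95 ± 0.44 (0.0176). Crem, a cAMP response element factor, rose by 0.88 ± 0.19 (0.0151). Of 22 other immediate early genes, 5 rose and none fell, with a median of 0.65. Trib1, a pseudokinase that directs protein degradation, rose by 1.47 ± 0.32 (0.0155). Zfp36, an RNA-binding protein that speeds the decay of cytokine mRNAs, rose by 1.18 ± 0.29 (0.0244), and the stress gene Gadd45b by 1.33 ± 0.35 (0.0301). The other two, Csrnp1 at 1.16 and Ier5 at 1.06, complete the count and were named after their values were seen.

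Of 21 measured kinases and factors upstream, 2 rose, with a median of 0.32: Map2k2, a MAP kinase kinase that activates ERK, by 0.71 ± 0.20 (adjusted p = 0.0392) and Map2k3, one that activates p38, by 1.07 ± 0.32 (0.0432). The 8 measured phosphatases related to Dusp1 had a list median of 0.35, and 5 of them lay above 0. None passed as higher and 1 fell (4.41% of all genes fell). This was Dusp4, a nuclear MAP kinase phosphatase, which fell by 1.47 ± 0.31 on the log2 scale (adjusted p = 0.0134), while Dusp1 rose. No gene of these 4 lists passed at 2 Gy. In limma, 4, 6, 4 and 3 had an unadjusted p under 0.05, in the order given. These counts are to be read against 2777 of the 13527 genes tested. For the genes that rose at 8 Gy, the share of each list is to be read against the 7.63% of all genes that did.

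Markers of blood cell types moved with the same comparison. Neutrophil markers were higher at 8 Gy in 14 of 15 genes, with a median of 2.40, and 11 of 12 B cell markers were lower, with a median of -3.40. Of all genes, 7.63% were higher and 4.41% lower at the same threshold. The neutrophil score, the mean level of the list minus its mean at 0 Gy, lay between -0.69 and 1.81 in sham mice, between 0.30 and 3.01 after 2 Gy and between 1.27 and 3.30 after 8 Gy. The 1.81 belonged to 0 Gy replicate 5, and the other 0 Gy arrays reached at most 0.20. The highest score of the 8 Gy arrays, 3.30, and of the 2 Gy arrays, 3.01, fell on replicates 4 of their groups. These were also the highest arrays of their groups for Ier3, Junb and Fos. Other members differed: at 8 Gy, Jun and Atf3 were highest on replicate 1, which had the lowest neutrophil score of that dose, 1.27. Jund was highest there on replicate 5 and Fosb on replicate 6. The B cell score lay between -1.94 and 0.83 in sham mice and between -4.05 and -1.12 after 8 Gy. Its lowest sham value was replicate 5 too, and the other sham arrays lay between -0.19 and 0.83, above all 8 Gy arrays. None of 12 monocyte markers, 8 NK cell markers and 9 erythroid markers passed. In limma, 3, 2 and 5 of them had an unadjusted p under 0.05, as did 4485 of the 13527 genes tested. Of the platelet markers 4 of 9 rose, and 1 of 12 T cell markers fell. All 15 listed p53 targets rose, and their score was 1.81 on 0 Gy replicate 5, at most 0.02 on the other sham arrays and between 1.88 and 2.51 after 8 Gy. The part of cell composition in the members' results was not tested.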

How the data were processed

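The deposited scanner files hold an intensity per spot, the processed signal made with Agilent Feature Extraction 9.5.3.1, per the file headers. The authors also deposited a table of intensities with a median of 20.7 in every array; its scale is linear and its steps are not given in the sources used here. The submitters' processing notes name limma without a step. From the 43379 non-control spots, log2 signals were averaged per probe (45 values marked as outliers left out) and reduced by the array's 75th percentile. Probes needed 5 or more of 18 arrays well above background and no value left out, 22016 in all. The probe with the highest mean stood for its gene, giving 13527 genes. Gene names were updated through RefSeq accessions for 23082 probes and through symbols for 9655, while 1446 stayed as the files name them and 6991 were unnamed. Dose and kit were the terms of a limma model (version 3.58.1, R 4.3.3) over the 18 arrays, 2-sided, with Benjamini-Hochberg adjustment over all genes and a threshold of 0.05. Errors beside differences are standard errors. The script was tested on simulated data. The labels call the 18 samples distinct. Arrays of equal replicate number at different doses had correlations of -0.35 to 0.48. Arrays of unequal number were not compared, so whether replicate numbers pair the mice was not tested. Probe positions are those in the files, on mm7, with no annotation of that build at hand.

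The members, lists and tests were chosen with earlier results of these data known. Named genes are all members, up to 3 called genes of each of 4 pathway lists with the smallest p at 8 Gy, the 3 nearest profiles of each member (1 of them is not reported here), and Cdkn1a. Csrnp1 and Ier5 fall outside this rule and complete a count of 5. Alternatives covered background correction, scaling, the deposited table, filters, probe choice, kit, slide, scan day, brightness, replicate number and each array left out.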

Additional observations from a re-analysis of the deposited data

Results flagged for a closer look

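The extreme array of a group was compared with the rest in 36 groups, the 12 probes at 3 doses, by the gap to the nearest array over the group's range. A total of 6 exceeded the 95% critical value, where chance alone flags about 1 in 20. At 0 Gy, 4 of them were replicate 5: Ier3 at 1.08, against -2.18 to -1.03 on the other arrays, Jun at 0.67, against -1.94 to -1.19, and both Junb probes, at 7.17 against 5.41 to 5.97 and at 7.39 against 5.00 to 5.96. The same array stood apart for Cdkn1a.

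At 8 Gy, Atf3 on replicate 1 read 2.26, against -0.02 to 0.35. At 2 Gy, the second Ier2 probe read 1.08 on replicate 4, against 0.22 to 0.39. The first Ier2 probe did not single out this array, at 3.55 beside 3.58 on replicate 5.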

How the results depend on the processing

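Of 37 alternatives at 8 Gy minus 0 Gy, Ier3 passed in 33, Junb in 32, Jun in 28, Dusp1 in 22, Fos in 19, Jund in 13 and Ier2 in 2, and these 7 kept their sign in all 37. From 6 members in the main model, the count went to 3 with normexp (Ier3, Fos and Jun), to 2 with RiboPure arrays alone, and to 0 with slide or scan day as a fixed block, with brightness as a covariate or without slide 3. With the replicate block, 2 members passed at 8 Gy (Junb and Ier3) and 0 in the other 3 comparisons. Whether the replicate numbers pair the mice was not tested. With slide as a random block 4 members passed (Junb, Dusp1, Ier3 and Jun), and with scan day 5, these and Fos. Leaving out 1 array gave 2 to 7 members: 2 without 0 Gy replicate 1 or 2 or 8 Gy replicate 4, 3 without 0 Gy replicate 4, 2 Gy replicate 5 or 8 Gy replicate 3, 5 or 6, and 7 without 0 Gy replicate 5 or 2 Gy replicate 4. The share of all genes called changed too, from 12% in the main model. It was 2.08% to 3.04% where 2 members passed and 3.16% to 6.06% where 3 did. Where 7 passed it was 22.8% without 0 Gy replicate 5 and 14.2% without 2 Gy replicate 4. At 2 Gy the count was 0 to 3, with 3 without 0 Gy replicate 5, beside 7.19% of all genes. Scaling to probes detected on all arrays moved the median of all genes from 0.08 to -0.11 and the share of higher calls from 63.4% to 37.5%, with the same count of 6 members; quantile normalization and the deposited table gave 45.5% and 45% and 5 members. All genes called numbered 1629 in the main model, 2051 with normexp, 590 without the filter, 294 with RiboPure arrays alone, 627 with slide as a random block, 869 with scan day as a random block and 250 with the replicate block. The causes were not tested.

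Signs turned only for differences that passed no test. At 8 Gy minus 0 Gy, Fosb was 0.51 with slide and 0.68 with scan day as a block, and -0.93 to 0.08 leaving out 1 array. Atf3 was -0.17 with normexp, -0.10 scaled to detected probes, -0.31 with scan day, and -0.26 to 0.24 leaving out 1 array. At 2 Gy minus 0 Gy, Fosb was 0.11 with RiboPure arrays alone, 0.12 with slide and 0.13 with scan day, and -0.66 to 0.21 leaving out 1 array, and Atf3 was 0.10 with brightness. At 8 Gy minus 2 Gy, Jund was -0.03 and Atf3 -0.01 with normexp, Fosb 0.38 and Ier2 -0.06 with slide, and Fosb 0.55 with scan day. Leaving out 1 array gave -0.42 to 0.01 for Fosb and -0.10 to 0.37 for Atf3 there. For PAXgene minus RiboPure, Junb was 0.01 with normexp, and Fosb was -0.09 with the replicate block and -0.17 without slide 3. Leaving out 1 array gave, for the kit, -0.49 to 0.73 for Fosb, -0.31 to 0.07 for Junb, -0.53 to 0.14 for Egr1, -0.59 to 0.04 for Ier3, -0.28 to 0.07 for Atf3 and -0.03 to 1.15 for Dusp1.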
